A study of Mus musculus with 29 samples.

Results

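Normal mammary fat was compared between obese mice that lost weight by intermittent calorie restriction (ICR, 5 libraries) and obese mice moved to a low-fat diet without restriction (LFD, 5 libraries). These 10 libraries were taken by their treatment label from the 29 RNA-seq libraries of the series, and all genes were considered. All mice of the series were wild-type C57BL/6N. ICR and LFD mice had first been made obese on a diet with 60% fat. The other groups were Control (a control diet throughout, 5 libraries), Obese (kept on the fat diet, 5), LFCR (low-fat diet with 30% restriction, 5) and MCR (Mediterranean-style diet with 30% restriction, 4). E0771 cells, a mouse mammary cancer line, were injected into gland 4 of the mice in week 25, so both groups had been injected, and the opposite gland 9 was sequenced at endpoint. The titles begin with "tumor" and the cell line field names E0771, whereas the tissue field and source name give normal tissue. The sources used here do not give the restriction schedule of ICR, the feeding phase or hour at collection, or the age at endpoint. Each library carries its own animal code, and nothing is said about cages or cohorts, so a p-value weighs a difference against the scatter among these libraries alone.

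A mouse mammary fat pad holds adipocytes, epithelial ducts, vessels, nerve and often a lymph node, so a bulk library mixes the RNA of all of them, and fewer cells of a type cannot be told apart from less RNA per cell. Fat tissue keeps a circadian clock, in which the activators Clock and Arntl drive their own repressors Per and Cry and the output factors Dbp, Tef and Hlf. Interferon-stimulated genes are switched on through factors that include Stat2 and Irf9 and encode antiviral proteins. Food intake and fasting are known to act on clock phase, lipid handling and inflammation of fat, which is the background to comparing restriction with unrestricted weight loss.

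The 10 libraries held 18170682 to 44127445 recovered reads, with the lane 4 pair at 18170682 and 18212783 and the other 8 at 30938161 or more. Adipoq, the adipocyte hormone adiponectin, ran from 42737 to 68649 normalized counts, and the luminal markers Epcam and Krt8 were at 1708 or more in every library, so both labelled components of the tissue were present. Library LFD 1 lacked the lymph node signal of the other 9. Its 12 B cell genes summed to 460 normalized counts against 14091 to 45458 in ICR and up to 41522 in LFD. Skeletal muscle genes summed to 1397 to 38583 in LFD and 1589 to 10851 in ICR, highest in LFD 5, while the muscle enzyme gene Ckm was at 0 in ICR 2 and below 6 in 5 other libraries. Luminal epithelial genes summed to 34723 to 139613 in LFD (median 89928) and 45174 to 67952 in ICR (median 51472). The 9 keratinocyte genes summed to 711 to 1749 in LFD and 776 to 1092 in ICR, with Krt1 and Krt10 at most 19 and 74. Sequencing lanes 1, 2, 4 and 5 each held 1 library of both groups, which gives 4 within-lane differences for each gene.

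The expression of 6 genes differed between ICR and LFD. Cry1, Strip2, Sipa1l2 and the low-level Acot3 rose in ICR, and Ifi44 and Gm43302 fell. That is 0.0309% of the 19387 genes tested with limma on log2 values (Benjamini-Hochberg adjusted p under 0.05), made of 4 higher (0.0206%) and 2 lower (0.0103%). An unadjusted p under 0.05 was found for 1671 genes. With the lymph node gene Glycam1 as a covariate 87 genes were called (0.449%), of which 55 were higher (0.284%) and 32 lower (0.165%). With the node chemokine gene Ccl21a as covariate 188 were called (0.970%), of which 123 were higher (0.634%) and 65 lower (0.335%). All 6 were among the 87, and all 87 among the 188.

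These counts rested on single libraries. Leaving out 1 library left 0 calls in 6 of 10 fits without covariate. It left 1 call without LFD 5 or ICR 4, 3 without ICR 3, and 87 without LFD 2. The Glycam1 count was 4, 400, 5, 14 and 10 without LFD 1 to 5 in turn, and 5, 3, 38, 9 and 177 without ICR 1 to 5. The Ccl21a count was 7, 627, 20, 21 and 57 without LFD 1 to 5, and 56, 5, 109, 18 and 363 without ICR 1 to 5. All 3 counts were highest without LFD 2. With sequencing lane as a term none of the 6 was called (adjusted p = 0.0635 for each, 1582 genes at unadjusted p under 0.05 in limma), and with lane beside Glycam1 or Ccl21a all 6 were, among 11 and 33 calls. Without the libraries of low lymph node signal in any group (a B cell list mean under 9), Sipa1l2 alone was called. With the mean of the luminal epithelial genes as covariate, 0 genes were called by limma (972 at unadjusted p under 0.05), and with limma's voom on the recovered reads likewise 0 (1560 at unadjusted p under 0.05). The part of epithelial content in the calls was not tested.

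Cry1, a repressor of the clock, had 230, 480, 289, 370 and 300 normalized counts in LFD libraries 1 to 5 and 627, 620, 708, 617 and 510 in ICR libraries 1 to 5. Every ICR library was above every LFD library, and ICR was higher within all 4 lanes (log2 differences 0.37 to 1.04). The means were 333 ± 95.7 in LFD and 616 ± 70.6 in ICR (SD, n = 5 each), a log2 difference of 0.87 (SE 0.15, limma adjusted p = 0.0415). Its adjusted p was 0.00612 with Glycam1 and 0.0106 with Ccl21a as covariate. With lane as a term its difference was 0.83 and it was not called (limma adjusted p = 0.0635).

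Sipa1l2, which encodes an activator of Rap GTPase hydrolysis, had the tightest groups of the 6. Its counts were 817, 856, 818, 789 and 885 in LFD and 1267, 1379, 1253, 1184 and 1171 in ICR. The log2 difference was 0.57 (SE 0.10, limma adjusted p = 0.0415), with 833 ± 37.5 in LFD and 1251 ± 83.1 in ICR (SD, n = 5 each). Strip2, a member of the STRIPAK phosphatase and kinase complexes, had 448, 834, 616, 679 and 712 in LFD against 955, 1336, 1516, 1048 and 1095 in ICR. Its groups did not overlap either, and its log2 difference was 0.84 (SE 0.16, limma adjusted p = 0.0415). LFD 1 held the lowest Strip2 count and LFD 2 the highest of their group.

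Ifi44, an interferon-induced gene, had 627, 290, 515, 938 and 561 counts in LFD and 152, 130, 269, 171 and 218 in ICR. All ICR libraries lay below all LFD libraries. LFD 4 was the highest and LFD 2, at 290, came nearest to ICR. The means were 586 ± 234 and 188 ± 56.0 (SD, n = 5 each), a log2 difference of -1.47 (SE 0.27, limma adjusted p = 0.0415). With the luminal genes as covariate the difference was -1.13 and was not called.

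Acot3 and Gm43302 were chosen after their values were seen, since one is low and the other is an unnamed gene model. Acot3, a peroxisomal acyl-CoA thioesterase gene, had 4.87, 1.76, 0, 7.53 and 27 counts in LFD and 57, 45, 52, 53 and 30 in ICR. Its groups did not overlap, although ICR 5 and LFD 5 were close (log2 difference 1.53, SE 0.27, limma adjusted p = 0.0415). It lies at chr12:84052144-84060402 on the plus strand (GRCm38) in a cluster of similar Acot genes, and Gm49366 and 4732463B04Rik overlap it, so reads may be split among them. The neighbouring Acot4 had 143 to 499 in LFD and 537 to 1067 in ICR and rose with Glycam1 as covariate (log2 difference 1.48, SE 0.33, limma adjusted p = 0.0448). The opposite-strand 4732463B04Rik rose too (34 to 125 in LFD, 142 to 293 in ICR, limma adjusted p = 0.0419 with Glycam1).

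Gm43302 had 145, 192, 195, 586 and 218 counts in LFD, and 0, 0, 47, 90 and 0 in ICR. ICR libraries 1, 2 and 5 held no read of it. It spans chr5:105214907-105293695 on the minus strand (GRCm38) and overlaps the guanylate-binding protein genes Gbp6 and Gbp10, so its reads cannot be told apart from theirs with certainty. The log2 difference was -3.18 (SE 0.55, limma adjusted p = 0.0415). Gbp6, an interferon-induced GTPase gene, had 2599 to 5284 in LFD and 1199 to 2130 in ICR, with no overlap, and fell with Glycam1 as covariate (log2 difference -0.89, SE 0.21, limma adjusted p = 0.0477).

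**Figure D1:**
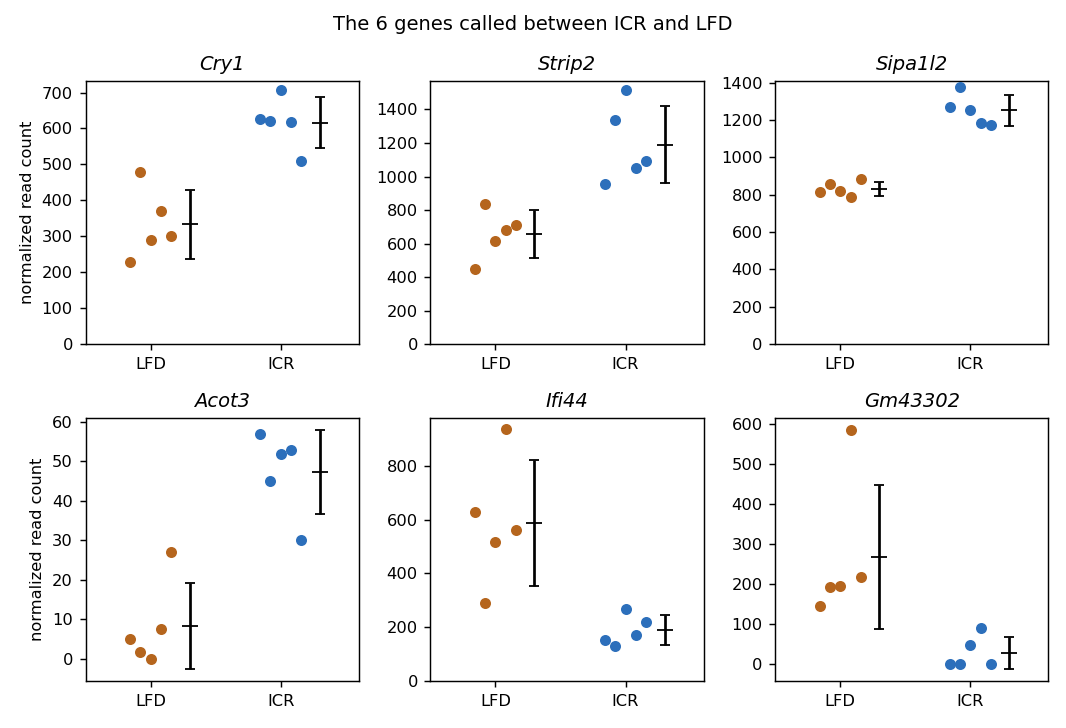
Normalized read counts of the 6 called genes in each library (points: 5 LFD, 5 ICR; bars: mean and SD). The 2 groups do not overlap in any panel: Cry1 runs from 230 to 480 in LFD and from 510 to 708 in ICR.

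Interferon response genes were lower in ICR as a list, with few single calls. Of 32 listed genes, 31 were tested. The list's median log2 difference was -0.73 against 0.01 over all genes, and 30 of 31 differences were below 0. Without covariate 1 member, Ifi44, fell. With Glycam1 6 fell and with Ccl21a 9 fell, and none rose in these 3 fits. In 17 of the 31 every ICR library was below every LFD library, against 0.959% of all genes lower in this way and 1.08% higher. The list was written with earlier results of these data known and gives no independent support. Its median was -0.59 with the luminal genes as covariate and -0.80 without LFD 1.

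Promoters of these genes are known for the interferon-stimulated response element, which is bound by a complex that holds Stat2 and Irf9. The letters GAAANNGAAA were searched on both strands in the 250 bases before the start site in RefSeq windows of GRCm38.p6. Of 22 interferon response genes with a window, 10 held a match, against 3.46% of 27025 symbols. Ifi44 and Xaf1 held none in this window, which says only that these letters are not there. Stretches of 4 of the matching promoters are shown because these genes span the synthetases, the ubiquitin-like Isg15 and a membrane protein of the list. All 4 lie on the minus strand, and capitals mark the matches, overlapping ones merged. Oas1a is at chr5:120907526-120907575, Oas3 at chr5:120777695-120777764, Isg15 at chr4:156200845-156200926 and Bst2 at chr8:71537557-71537632.
Oas1a: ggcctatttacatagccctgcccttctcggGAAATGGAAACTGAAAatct
Oas3: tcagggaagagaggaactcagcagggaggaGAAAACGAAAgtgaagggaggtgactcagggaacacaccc
Isg15: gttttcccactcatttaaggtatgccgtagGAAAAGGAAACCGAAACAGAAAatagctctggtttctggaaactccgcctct
Bst2: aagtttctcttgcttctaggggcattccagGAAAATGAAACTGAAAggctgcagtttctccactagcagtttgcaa

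Among the sensors and synthetases, Oas1a (an RNA-activated synthetase) had 493, 387, 561, 866 and 559 counts in LFD and 248, 222, 242, 230 and 335 in ICR. The groups did not overlap. Its log2 difference was -1.06 (SE 0.24), with a limma adjusted p of 0.103 without covariate and 0.0477 with Glycam1. Oas3 had 263 to 653 in LFD and 96 to 194 in ICR, a log2 difference of -1.32 (limma adjusted p = 0.169, and 0.0371 with Ccl21a). Dhx58, an RNA helicase that senses viral RNA, had 493 to 864 in LFD and 346 to 423 in ICR and fell with Glycam1 as covariate (log2 difference -0.73, limma adjusted p = 0.0419). Its antisense partner Dhx58os overlaps it and fell too with Glycam1 (limma adjusted p = 0.0448), and no source used here gives the strand setting of the counting.

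Rtp4, an interferon-induced chaperone of receptors, had 1335, 875, 1243, 2098 and 1250 counts in LFD and 536, 419, 731, 658 and 629 in ICR. The gap between the groups was 875 to 731. It fell with Glycam1 (log2 difference -1.10, limma adjusted p = 0.0419) and missed the threshold without covariate (adjusted p = 0.0821). Xaf1, an interferon-induced regulator of apoptosis, had 972 to 1516 in LFD and 579 to 843 in ICR, with adjusted p 0.0932 without and 0.0436 with Glycam1 in limma. Bst2, which tethers virus particles to the membrane, had 900 to 2172 in LFD and 504 to 1096 in ICR. The Bst2 groups overlapped, and it fell with Ccl21a only (limma adjusted p = 0.0411, against 0.0572 with Glycam1).

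Of the transcription factors, Irf9 had 2172 to 3176 counts in LFD and 1524 to 2034 in ICR, and fell with Glycam1 (log2 difference -0.58, limma adjusted p = 0.0430). Stat2 had 2276 to 3579 and 1678 to 2178 without overlap, but no fit of the 3 called it (log2 difference -0.42, limma adjusted p = 0.322 without covariate). The ubiquitin-like Isg15 had 208 to 648 in LFD and 88 to 184 in ICR (log2 difference -1.12, limma adjusted p = 0.190). Ifi204 was the member above 0 (log2 difference 0.05).

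Outside the list stood Apol9a and Slfn4, whose families include interferon-induced genes. Apol9a had 76 to 264 counts in LFD and 36 to 57 in ICR, and Slfn4, a myeloid Schlafen gene, 125 to 553 and 34 to 84. Both fell with Glycam1 as covariate (limma adjusted p = 0.0430 and 0.0421). Near-identical copies exist for the Oas, Apol9, Slfn and Gbp families, so their separate values are uncertain. Among 28 genes of the interferon-gamma response and antigen presentation, 0 were called without covariate and 1, Gbp6, with either. Of their differences 26 of 28 were below 0, and the median log2 difference was -0.27 (-0.34 with Glycam1 and -0.38 with Ccl21a).

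**Figure D2:**
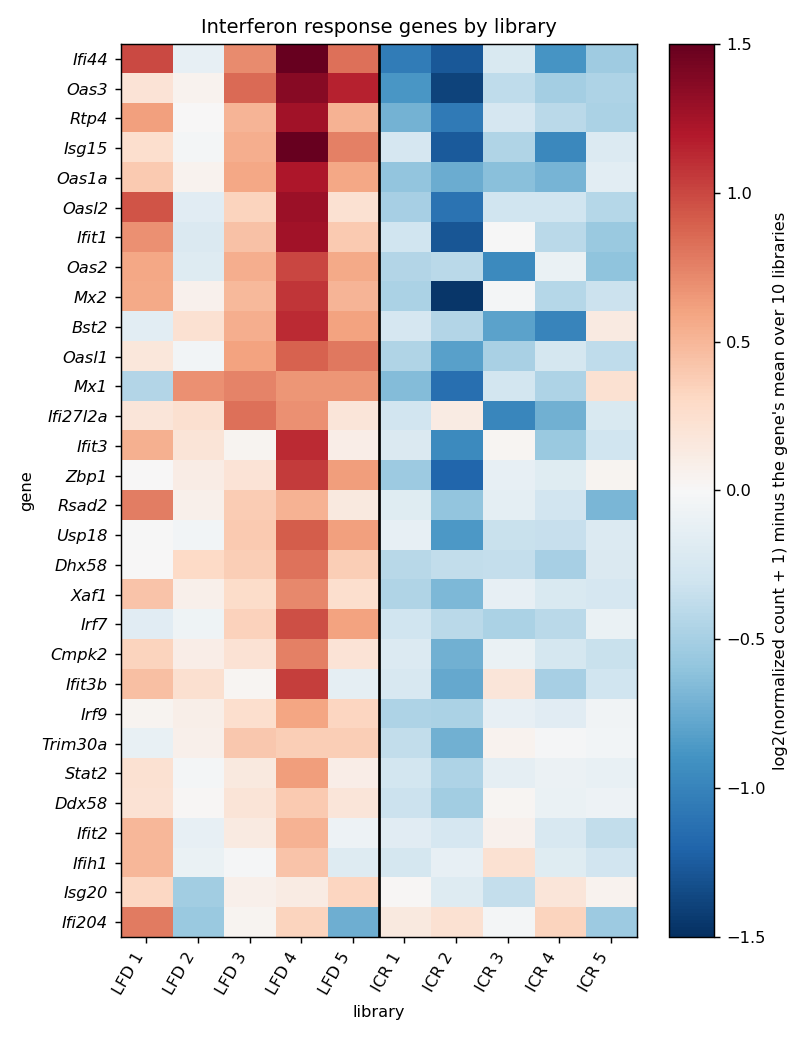
Each row is 1 interferon response gene, 30 of the 31 tested, and each column 1 library; colour gives log2(normalized count + 1) minus the gene's mean over the 10 libraries. LFD 4 is the reddest column and ICR 2 among the bluest, and the ICR columns are blue for most genes.

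Differences of clock genes lay on both sides of 0. Of 17 tested, 11 log2 differences were above 0 and 6 below, with a median of 0.36, and Cry1 alone was called in each of the 3 fits. Of the members, 6 did not overlap and were higher in ICR (Per2, Per3, Cry1, Tef, Hlf and Ciart), and 1 did not overlap and was lower (Clock). Over all genes, 1.08% were higher and 0.959% lower in this way.

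The repressor Per2 had 1409, 2036, 1636, 2059 and 1022 counts in LFD and 3623, 4884, 3553, 3656 and 2780 in ICR. Its means were 1632 ± 438 and 3699 ± 755 (SD, n = 5 each), a log2 difference of 1.19 (SE 0.33, limma adjusted p = 0.190). Per3 had 1865 to 4350 and 4745 to 6873 (log2 difference 1.05, limma adjusted p = 0.202). Both were separated between the groups and were not called.

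Of the output factors, which bind the D-box of their target genes, Hlf had 1106, 1902, 1039, 1519 and 845 counts in LFD and 2572, 3001, 3265, 2738 and 2032 in ICR (log2 difference 1.11, SE 0.30, limma adjusted p = 0.169). Tef had 4724 to 7665 and 8028 to 13608 (log2 difference 0.79), and Dbp overlapped, with 1523 to 2990 and 2517 to 3594. Usp2, a deubiquitinase gene known as a clock output and chosen after its values were seen, had 258 to 476 in LFD and 483 to 1244 in ICR and rose with Ccl21a as covariate (log2 difference 1.33, limma adjusted p = 0.0458).

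The activators lay the other way. Arntl had 506, 311, 425, 248 and 390 counts in LFD and 146, 96, 226, 261 and 235 in ICR, which overlapped through LFD 4 and ICR 4 (log2 difference -0.91, limma adjusted p = 0.309). Npas2, a partner of Arntl, had 32 to 224 in LFD and 24 to 35 in ICR (log2 difference -1.20, limma adjusted p = 0.473). Clock itself had 2773 to 4422 and 2091 to 2633 (log2 difference -0.38, limma adjusted p = 0.514). The repressor Nr1d1 had 3752 to 8116 in LFD and 2915 to 4213 in ICR (log2 difference -0.78, limma adjusted p = 0.467). None of these 4 was called.

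The E-box CACGTG, the element that Clock and Arntl bind, was searched in the same windows. It is its own reverse complement. It was present in 5 of 14 clock genes with a window and in 6.86% of all symbols. The 3 promoters shown belong to genes that did not overlap between groups, with E-boxes in capitals. Per1 and Bhlhe41 also held the E-box, and their groups overlapped. The separated Per2, Per3, Hlf and Clock were not among the 5. Cry1 is at chr10:85185079-85185144 (minus strand), Tef at chr15:81802516-81802581 (plus strand) and Ciart, a clock repressor, at chr3:95882237-95882374 (minus strand), where 3 copies lie.
Cry1: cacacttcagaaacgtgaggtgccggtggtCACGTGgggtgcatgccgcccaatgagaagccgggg
Tef: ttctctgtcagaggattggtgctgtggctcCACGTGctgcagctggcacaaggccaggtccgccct
Ciart: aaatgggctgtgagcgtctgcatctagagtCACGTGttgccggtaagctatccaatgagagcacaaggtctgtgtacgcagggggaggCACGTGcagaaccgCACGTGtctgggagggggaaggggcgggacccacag

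**Figure D3:**
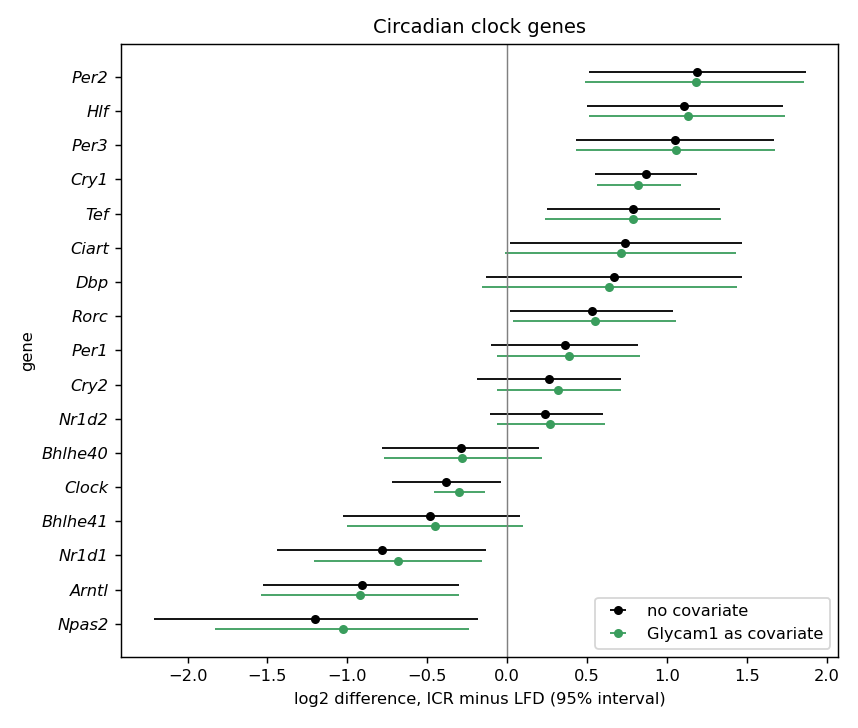
Log2 difference, ICR minus LFD, with its 95% interval for 17 clock genes, without covariate and with Glycam1 as covariate. Per2, Hlf and Per3 lie highest, at 1.19, 1.11 and 1.05, and Npas2 and Arntl lowest, at -1.20 and -0.91.

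The list of liver-type and urinary protein genes had a median log2 difference of 0.46 over 14 tested members of 22 listed. Of these, 0 were called without covariate. Cyp2f2, a cytochrome P450 gene best known from lung and liver, had 173, 1198, 1176, 1348 and 781 counts in LFD and 3480, 3469, 3615, 5909 and 1992 in ICR. LFD 1 was far below the rest of its group, and the groups did not overlap. The means were 935 ± 475 and 3693 ± 1406 (SD, n = 5 each), a ratio of 3.95. The log2 difference was 2.14 (SE 0.42, limma adjusted p = 0.0774), and Cyp2f2 rose with Glycam1 (2.04, adjusted p = 0.0222) and with Ccl21a (2.02, adjusted p = 0.0251).

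Alb, the albumin gene, had 609, 1111, 1121, 1179 and 2003 counts in LFD and 2831, 3719, 3491, 2508 and 1767 in ICR. LFD 5 exceeded ICR 5, the pair from lane 1. The log2 difference was 1.28 (SE 0.40), with limma adjusted p 0.253 without covariate and 0.0990 with Glycam1. Cyp2e1, another cytochrome P450 gene, had 7618 to 33234 in LFD and 42271 to 98432 in ICR (log2 difference 1.81, limma adjusted p = 0.238). Car3, an abundant carbonic anhydrase gene of fat, had 232615 to 314318 and 359703 to 510006 (log2 difference 0.58, limma adjusted p = 0.588). Both were separated between groups without passing the test. The urinary protein genes Mup10 and Mup18 overlapped widely, with Mup10 at 164 to 7805 in LFD and 285 to 4878 in ICR, and as near-identical copies they are uncertain.

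Thermogenic genes split by library within LFD. Ucp1, the uncoupling protein of brown and beige adipocytes, had 1.95, 26, 621, 2484 and 2879 counts in LFD and 2.66, 0, 8.62, 3.07 and 4.93 in ICR. LFD 3, 4 and 5 were high, and LFD 1 was within the range of ICR. On the log2 scale the difference was -4.0 (SE 1.12, limma adjusted p = 0.195), and with Glycam1 the adjusted p was 0.0832. Fabp3, a fatty acid binding protein gene of muscle and brown fat, had 53, 9.70, 66, 351 and 252 in LFD and 1.08 to 7.99 in ICR. Otop1, a proton channel gene, had 198 to 618 and 39 to 188. These were the 2 members of 19 tested whose groups did not overlap (0.959% of all genes were lower in this way). In the 3 fits 0 of 19 were called. Of the others, Cidea, a lipid droplet protein gene, had 62, 268, 466, 1448 and 1869 in LFD and 124 to 521 in ICR. The regulators Prdm16 and Ppargc1a lay on the other side, with log2 differences of 0.34 and 0.47. The list's median was -0.73, and -0.39 with the luminal genes as covariate. Fabp3 is also a muscle gene. The muscle genes summed highest in LFD 5 (38583), whereas Fabp3 was highest in LFD 4 (351). In LFD 4 the muscle list mean was the lowest of the LFD group (5.71 on the log2 scale). The part of muscle in these values was not tested.

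Epithelial genes were lower in ICR on balance. The 19 luminal genes had a median log2 difference of -0.74 (-0.55 without LFD 1), 18 of 19 were below 0, and 0 were called without covariate or with Glycam1. In 0 of the 19 was every ICR library below every LFD library, against 0.959% of all genes. The tight-junction gene Cldn7 fell with Ccl21a (314 to 535 in LFD, 161 to 331 in ICR, limma adjusted p = 0.0476). Dmbt1, a secreted glycoprotein gene of epithelia, had 18945, 12193, 18235, 32652 and 10930 counts in LFD and 3704, 434, 452, 5001 and 1122 in ICR. Its means were 18591 ± 8625 and 2143 ± 2088 (SD, n = 5 each), and its log2 difference of -3.66 (SE 0.77) had a limma adjusted p of 0.0821, and 0.0419 with Glycam1. Tjp3, a tight-junction scaffold gene, had 441 to 791 and 293 to 403, Krt23, an epithelial keratin, 83 to 184 and 27 to 66, and Capn8, a calcium-dependent protease gene, 155 to 313 and 56 to 103. These 3 and the RNA-binding protein gene Msi1 (71 to 108 and 33 to 59) fell with Glycam1 and missed the threshold without it.

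With the luminal list as covariate the Dmbt1 difference was -2.53 and that of Tjp3 -0.49. Areg, Pgr and Prlr, genes of hormone-responsive luminal cells, overlapped, with Pgr at 391 to 5602 in LFD and 316 to 1936 in ICR. Esr1, the estrogen receptor gene that stromal and fat cells also express, was the luminal list's member above 0 (log2 difference 0.59, limma adjusted p = 0.555). The basal epithelium list had a median of -0.11 (0.08 without LFD 1) and milk proteins 0.25, with 0 called in each of the 3 fits.

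Among the rises next by p without covariate were genes of signalling and of matrix. Podn, a matrix proteoglycan gene, had 1433 to 2019 and 3216 to 4796 (log2 difference 1.17, limma adjusted p = 0.0932, and 0.0222 with Glycam1). Rgs7bp, which anchors regulators of G protein signalling, had 294, 602, 254, 305 and 273 in LFD and 668 to 1195 in ICR, with LFD 2 well above its group. Rapgef2, an exchange factor for Rap, had 1388 to 1704 and 1904 to 2417. Dido1, Lonrf1, Ppp4r4 and Pard6g were separated too, with log2 differences of 0.35, 0.56, 0.58 and 0.60, and with Rgs7bp and Rapgef2 all 6 rose with Glycam1 as covariate.

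No member of the fat metabolism lists, which do not hold Acot3, was called. Fatty acid synthesis (23 genes, median log2 difference -0.00), mature adipocyte (24, median 0.32), lipolysis (15, median 0.25), fatty acid oxidation (25, median 0.04), citrate cycle (24, median 0.14) and oxidative phosphorylation (43, median 0.07) lists had 0 called in each of the 3 fits. Several of these medians rested on LFD 1. Without it they were 0.15 for lipolysis, -0.07 for fatty acid oxidation, 0.03 for the citrate cycle and -0.08 for oxidative phosphorylation, where 8 of 43 differences were above 0 in place of 35. Fasn, the fatty acid synthase gene, had 19683, 159290, 64904, 284163 and 363446 counts in LFD and 149889, 56692, 298487, 147308 and 39208 in ICR, a spread wider than the difference of -0.10 on the log2 scale (SE 0.81). Within the 4 lanes that hold both groups Fasn was lower in ICR each time (-3.21 to -0.09), and the lowest LFD library, LFD 1, and the highest ICR library, ICR 3, are the 2 outside these lanes. Lep, which encodes leptin and follows fat mass, had 5516 to 41848 in LFD and 12403 to 45062 in ICR (log2 difference 0.64, SE 0.53, limma adjusted p = 0.868). Adipoq differed by 0.14 (SE 0.28, limma adjusted p = 0.976). Of the mature adipocyte genes, 23 of 24 differences were above 0. Aacs, which feeds ketone carbon into lipid synthesis, was the member of the synthesis list whose groups did not overlap (log2 difference 1.38, limma adjusted p = 0.303).

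Of the branched-chain amino acid genes 2 were separated, Bcat2, the mitochondrial transaminase (means 1905 in LFD and 3354 in ICR, limma adjusted p = 0.206), and Aldh6a1 (13006 and 20245, limma adjusted p = 0.513). That list's median over 17 genes was 0.23, with 0 called in each of the 3 fits. Of all genes, 1.08% were separated and higher. In the insulin and IGF list of 18 genes, Grb10, an adaptor that restrains the receptors, rose with Ccl21a (2590 to 3609 in LFD, 3316 to 5689 in ICR, limma adjusted p = 0.0305). Asns, the asparagine synthetase gene of the amino acid stress response, had 1344 to 1739 and 2098 to 2977 and rose with Ccl21a (limma adjusted p = 0.0306).

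Macrophage genes had a median log2 difference of -0.16 over 17 genes, and Adgre1, the macrophage surface marker F4/80, had 1462, 964, 1617, 1330 and 833 counts in LFD and 989, 913, 824, 741 and 806 in ICR (log2 difference -0.49, SE 0.27, limma adjusted p = 0.667). Aif1, a calcium-binding protein gene of macrophages, had 193 to 470 in LFD and 190 to 411 in ICR. It fell with Ccl21a as covariate only (log2 difference -0.67, limma adjusted p = 0.0476). Its adjusted p was 0.919 without covariate and 0.137 with Glycam1 in limma. Over 19 cytokine and acute phase genes the median was -0.34 with 0 called in the 3 fits. The chemokine genes Ccl2 (93 to 157 in LFD, 53 to 85 in ICR) and Ccl7 (100 to 182 and 48 to 94) and the interleukin-1 antagonist gene Il1rn (67 to 123 and 23 to 63) were separated and not called. In all, 4 of the 19 were separated and lower, the other being the low-level Saa3. Separated and higher was 1, the chemokine gene Cxcl12 (10978 to 12077 in LFD, 13200 to 15670 in ICR, limma adjusted p = 0.647). Over all genes, 0.959% were separated and lower and 1.08% separated and higher.

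Lymph node genes moved with LFD 1. Glycam1 had 7.79, 7448, 11157, 6862 and 8621 counts in LFD and 2982 to 8430 in ICR, and Ccl21a 83, 8424, 9363, 5097 and 9952 against 4286 to 12095. The B cell list's median log2 difference was 0.72, and -0.44 without LFD 1. Ighg1, an immunoglobulin heavy chain gene chosen after its values were seen, had 0, 277, 343, 333 and 327 in LFD and 1616, 643, 4271, 652 and 3276 in ICR. It rose with Glycam1 as covariate (log2 difference 2.58, SE 0.56, limma adjusted p = 0.0430) and had adjusted p 0.427 without it. Among 8 plasma cell genes 0 were called in each of the 3 fits.

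**Figure D4:**
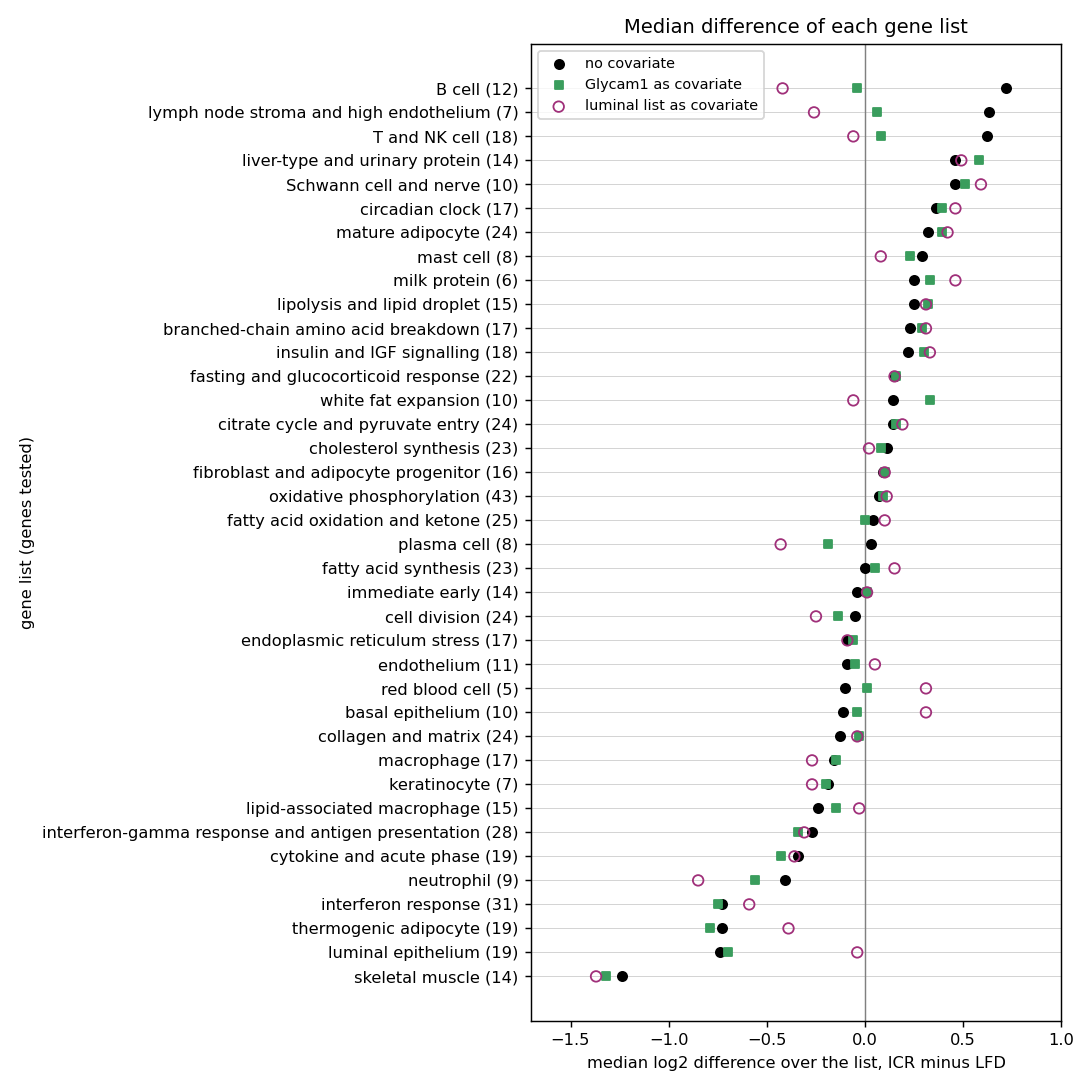
Median log2 difference, ICR minus LFD, over the tested genes of each of 38 lists, without covariate, with Glycam1 and with the luminal list as covariate. The skeletal muscle list lies lowest, at -1.24 without covariate, with 13 of 14 differences below 0 and 0 called. The interferon response, thermogenic and luminal lists lie near -0.73, and the luminal covariate moves the luminal list to -0.04 and the interferon list to -0.59.

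ICR was also set against the continuous restriction diets. These contrasts use the same ICR libraries and test whether the change from LFD differs between diets. The lymph node signal differs here too: the B cell list mean was 10.1 to 11.7 (log2) in all 5 ICR libraries, but 6.08 and 6.59 in 2 of 5 LFCR libraries and 5.75, 6.43 and 5.75 in 3 of 4 MCR libraries. Its part in these contrasts was not tested beyond the fits given here. Against LFCR 0 genes were called by limma (0%, with 2413 at unadjusted p under 0.05), and voom gave 0 as well (2425 at unadjusted p under 0.05). Ifi44 averaged 188 ± 56.0 counts in ICR and 164 ± 24.2 in LFCR (SD, n = 5 each), with a log2 difference of 0.14 (95% interval -0.41 to 0.70). For Cry1 the means were 616 ± 70.6 and 678 ± 20.0 (difference -0.14, interval -0.46 to 0.18). Cyp2f2 averaged 3693 ± 1406 and 3666 ± 1222 (-0.01, interval -0.87 to 0.85), and Acot3 47.3 ± 10.8 and 55.9 ± 28.1 (-0.11, interval -0.67 to 0.45). Each of these 4 differences in means was smaller than the SD in ICR. Other genes named here lay further apart, although none was called. Strip2 averaged 1190 ± 230 in ICR and 1729 ± 272 in LFCR (-0.54, interval -0.86 to -0.22). Fasn averaged 138317 ± 102901 and 746525 ± 231550 (-2.74, interval -4.40 to -1.08). For Gm43302 the means were 27.5 ± 40.6 and 88.2 ± 46.2 (-1.87, interval -3.01 to -0.73). A p above the threshold does not show that the diets act alike.

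Against MCR, 1 gene was called (0.00516%). Pmepa1, a TGF-beta induced negative regulator of that pathway, had 4272 to 8731 counts in ICR, and its mean was 6567 ± 1753 (SD, n = 5) against 2097 ± 734 in MCR (SD, n = 4), a log2 difference of 1.66 (SE 0.27, limma adjusted p = 0.0270). It missed the threshold without ICR 2, ICR 4 or ICR 5 (log2 differences 1.55, 1.62 and 1.61). Without the libraries of low lymph node signal, which leaves 1 MCR library whose spread is taken from the other groups, it was not called either (1.98, limma adjusted p = 0.0787). It overlapped between ICR and LFD, where it had 3692 to 6732. Covariates gave other counts: 1076 genes were called with Glycam1, 616 with Ccl21a and 1254 with the B cell list as covariate. The clock gene Cry1 averaged 377 ± 96.8 in MCR against 616 ± 70.6 in ICR, and Per2 1346 ± 483 against 3699 ± 755 (SD, n = 4 and 5), with log2 differences of 0.70 and 1.49 and a limma adjusted p of 0.0866 for both. Acot3 averaged 12.3 ± 4.83 in MCR.

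**Figure D5:**
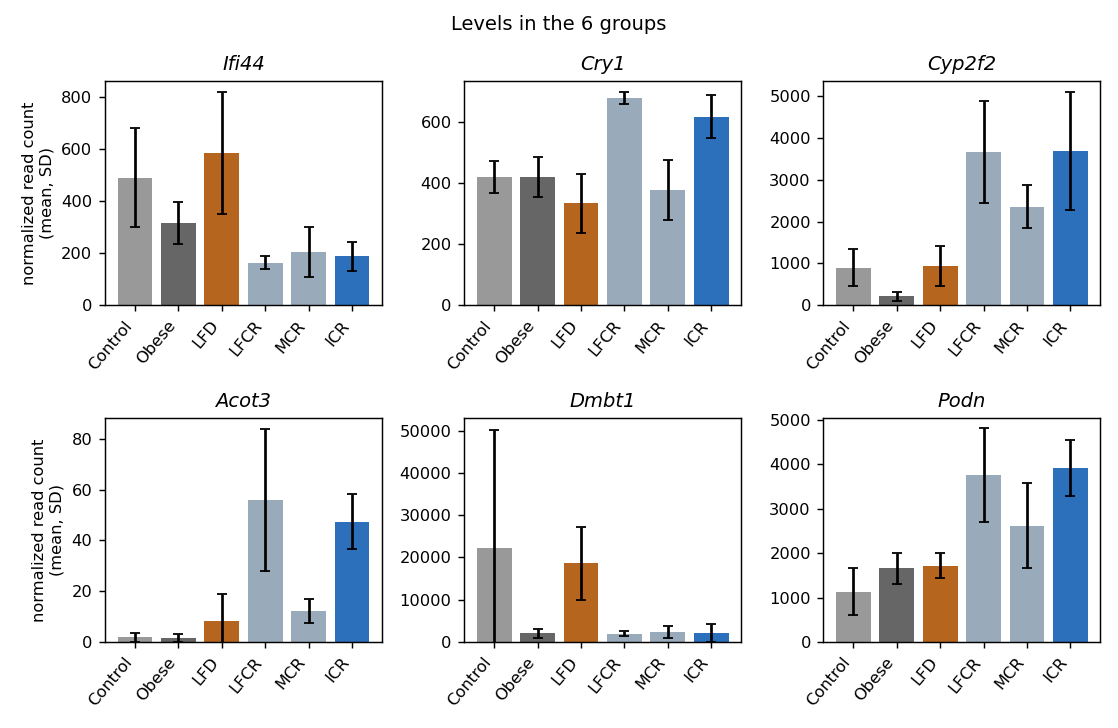
Mean normalized count with SD (lower bars end at 0) in the 6 groups for 6 genes, 5 libraries each and 4 in MCR. ICR and LFCR have similar means for Ifi44 (188 and 164) and Cyp2f2 (3693 and 3666), and Cry1 is lower in MCR (377) than in ICR (616).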

How the data were processed

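RNA was measured in 29 libraries. TRIzol RNA went into stranded libraries read as pairs of 76 bases, per the labels' protocols. TopHat2 2.0.7, HTSeq 0.5.3p9, DESeq2 and the mm10 build are named in the submitters' processing notes, and neither options nor annotation are given there. The authors deposited 1 log2 value per gene and library, 30818 symbols in all. Every column has the lowest value 3.75. Undoing a variance-stabilising transform with that floor gave whole reads for 100% of values (tolerance 0.01), so log2 values are taken as variance-stabilised, which is an inference from the values. Such values understate the change of low genes. Normalized counts printed here are the values with the transform undone.

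Genes with 10 or more normalized counts in at least 4 libraries (19387) were fitted with limma 3.58.1 (R 4.3.3), 1 mean per group over all 29 libraries, with trend and robust moderation, Benjamini-Hochberg adjustment over all genes and a threshold of 0.05. Every adjusted p is from limma. Covariate fits add the log2 value of Glycam1 or Ccl21a, which then leaves the test (19386 genes). The fit without covariate was run on simulated data with noise drawn independently for each gene. Such data hold no variation shared between genes, such as lymph node content. They therefore do not test the covariate fits or how stable the counts are. Replicates were distinct libraries (Pearson r 0.946 to 0.990 across genes).

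Named genes are the 12 largest rises and 12 largest falls past the threshold with a mean count of 50 or more (where fewer passed, the next by unadjusted p, given as not called), leaving out unnamed gene models and immune receptor segments. To these come up to 4 genes of each list with a call, and Cyp2f2, Alb, Ucp1, Ifi44, Lep, Adipoq, Adgre1, Fasn, Glycam1 and Ccl21a. The groups, lists and rule were chosen with earlier results of these data known. The 38 lists are described by counts and medians, and no set test was run. Lanes are those in the table's column names. All 37 named genes were found in GENCODE vM21 (GRCm38, which shares coordinates with mm10). Alternatives were other covariates, a lane term, other filters and scalings, voom, array weights and leaving out each library. Values of 2 genes that the rule or a list names are not reported here.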

Additional observations from a re-analysis of the deposited data

Results flagged for a closer look

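In 86 groups of 5 libraries (43 genes or list means, LFD and ICR apart), 9 had 1 library far from the other 4, by a 95% limit that about 1 in 20 groups pass by chance. Several of the 9 share a library and a cell type, so their number is not read as an excess. Of these, 3 were the lymph node signal of LFD 1, on the log2 scale: Glycam1 at 4.82 against 12.7 to 13.4 in the other LFD libraries, Ccl21a at 6.75 against 12.3 to 13.3, and the B cell list mean at 5.71 against 11.0 to 11.6. In the same library Cyp2f2 was at 7.64 against 9.66 to 10.4. LFD 2 stood apart for Rgs7bp, at 9.30 against 8.13 to 8.37, and LFD 4 for Gm43302, at 9.26 against 7.42 to 7.93. Within ICR, the skeletal muscle list mean was 8.85 in ICR 4 against 5.81 to 6.21, Capn8 was 6.34 in ICR 4 against 6.85 to 7.01, and Oas1a was 8.50 in ICR 5 against 7.95 to 8.10. One gene differed between restriction diets by its own test, Pmepa1, with a log2 difference of 1.66 between ICR and MCR.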

How the results depend on the processing

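The number of called genes moved with the setting more than the differences did. Higher and lower calls, 4 and 2 as reported, became 109 and 62 with the B cell list as covariate, 55 and 32 with Glycam1, 123 and 65 with Ccl21a and 174 and 109 with array weights. They became 1 and 0 without the libraries whose B cell mean is under 9. Luminal or muscle lists as covariates, a lane term, ICR and LFD fitted alone, log2(count + 1) and voom each gave 0 and 0. Leaving out 1 library gave 0 to 28 higher and 0 to 59 lower. With Glycam1 the leave-one-out counts ran from 3 to 400, and a second term for the luminal list gave 0, a lane term 11, and ICR and LFD alone 3. With Ccl21a they ran from 5 to 627, and the same changes gave 2, 33 and 1. With ICR and LFD fitted alone, 0 of the 6 genes called without covariate were among those 3 calls or that 1. ICR against LFCR gave 1431 calls with array weights and 0 to 7 leaving out 1 ICR or LFD library. ICR against MCR gave 1254 with the B cell list, 1076 with Glycam1, 616 with Ccl21a, 5201 with array weights, 50 after quantile normalization, 4 without the libraries of low B cell mean (1 MCR library left, and Pmepa1 not among the 4), 2 without a filter and 0 to 4 leaving out 1 library. The causes were not tested.

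Of 923 alternative values of the 37 named genes, 715 kept direction and side of the threshold, 102 gained a call, 92 lost one and 14 changed sign. Signs changed for 3 genes that were not called. Fasn was 0.04 with the luminal covariate and ran from -0.74 to 0.31 leaving out 1 library. Glycam1 was -0.54 with the luminal covariate, -0.69 without low B cell libraries, -0.49 with array weights and -0.37 with Ccl21a, and ran from -0.69 to 1.47. Ccl21a was -0.21 and -0.11 in the first 2 of these and ran from -0.11 to 1.52. Cyp2f2 between ICR and LFCR was 0.11 with the luminal covariate, 0.08 without low B cell libraries, 0.03 after quantile normalization and 0.10 with array weights, and ran from -0.20 to 0.19.

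Of 950 list medians, 11 moved by more than the spread between libraries. With the luminal covariate they were 0.46 for the clock, 0.08 for mast cells, -0.04 for luminal epithelium and 0.05 for endothelium. On log2(count + 1) and with voom they were -0.66 and -0.62 for cytokines and -0.98 and -1.05 for neutrophils. Leaving out 1 library gave 0.25 to 0.43 for the clock and 0.13 to 0.36 for insulin and IGF genes. No paired analysis was possible because the labels number no replicates across groups, and lane served as a blocking term instead. The lowest depth was 18170682 reads, and Acot3 in LFD and Ucp1 in ICR rest on few reads.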

Other observations

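Genes outside the lists that passed the test with Glycam1 as covariate, chosen here after their values were seen, included enzymes and transporters of small molecules. All of the following were higher in ICR and missed the threshold without covariate. Mat2a, which makes the methyl donor S-adenosylmethionine, had 7405 to 9499 normalized counts in LFD and 9570 to 11473 in ICR (log2 difference 0.42, limma adjusted p = 0.0430 with Glycam1). Slc16a7, a pyruvate and lactate transporter gene, had 636 to 1006 and 1041 to 1547 (0.85, adjusted p = 0.0430). Papss2, which activates sulfate for transfer, had 1696 to 3664 and 3035 to 5127 and overlapped (0.83, adjusted p = 0.0430). Fmo4, a flavin monooxygenase gene, had 38 to 75 and 92 to 138 (0.89, adjusted p = 0.0398), and Hacd1, of very long chain fatty acid elongation, 190 to 248 and 284 to 376 (0.61, adjusted p = 0.0370).

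On the lower side stood further genes known to respond to interferon. Adar, an RNA-editing deaminase gene, had 2333 to 3772 in LFD and 1968 to 2648 in ICR (log2 difference -0.50, limma adjusted p = 0.0477 with Glycam1). Ly6e, a membrane protein gene, had 23041 to 31328 and 16825 to 24709 (-0.47, adjusted p = 0.0430), and Uba7, the activating enzyme of Isg15, 1653 to 3695 and 1827 to 2801 (-0.55, adjusted p = 0.0425). These 3 overlapped between the groups and missed the threshold without covariate (limma adjusted p = 0.519, 0.335 and 0.697 in turn).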
